A study of Mus musculus with 4 samples.

Results

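B2 and B3 are short interspersed nuclear elements (SINEs) of rodents, and their transcripts were examined in mouse embryonic stem cells (ESCs) with and without the telomerase RNA *Terc*. All transposable element (TE) copies whose repeat name starts with B2 or B3 were taken, which gave 372923 of the 3658072 copies listed and 5 of the 1072 repeat names, namely B2_Mm1a, B2_Mm1t, B2_Mm2, B3 and B3A. Of these copies, 25329 had at least 5 counts over the 4 libraries and were tested one by one. RNA-seq of poly(A) RNA compared the G3 Terc-/- line F35, the third generation without *Terc*, with the WT line N12 (called G3 and WT ESCs here). Both lines have the C57BL/6 background and were grown on feeder cells in medium with serum and LIF, without any treatment. Each genotype had 2 libraries of 1 ESC line, so that genotype and line cannot be told apart. The labels do not say whether the libraries of a line came from separate cultures, and the p-values measure the spread between these libraries only. Adjusted p-values are Benjamini-Hochberg values of the quasi-likelihood test of edgeR over all features of a kind, unless another tool is named.

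A SINE encodes no protein. Its body descends from a small structural RNA gene (a tRNA in the case of B2), it carries an internal promoter read by RNA polymerase III, and it is copied into new sites by the LINE1 machinery. B2_Mm1a and B2_Mm1t are the younger B2 subfamilies of the mouse, B2_Mm2 is older, and B3 and B3A are old relatives. B2 copies are known in ESCs for carrying many binding sites of the insulator protein CTCF, and B2 RNA itself can bind RNA polymerase II during heat shock. Many SINE copies also lie inside introns and the untranslated ends of genes, where they are copied as part of a longer RNA polymerase II transcript. The counts do not set these sources apart, and polyadenylated RNA holds more of the second kind.

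*Terc* was counted 7 and 2 times in WT ESCs and 0 times in either G3 library, which allows up to 3 counts each (counting error only). Gene counts lay between 18047995 and 22520017 per library and TE counts between 1805047 and 2104586, of which B2 and B3 held between 184415 and 215604. All 16 pluripotency markers checked were detected, 11 of them higher and 4 lower by adjusted p-value (edgeR), beside 21.7% higher and 21.8% lower of all genes tested. Markers of feeder fibroblasts summed to 210.3 and 138.1 CPM (counts scaled to a common total, here of the gene counts) for WT and 249.9 and 168.6 CPM for G3 ESCs. All 14 of these markers had counts, and in 5 of the 13 that were tested the level was higher in G3 ESCs by the adjusted p-value of edgeR and in 2 by that of DESeq2. The feeder sum was larger in replicate 1 of each genotype, and its part in the results was not tested. In bulk RNA, fewer cells of a type and less RNA per cell cannot be told apart.

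Most copies had no count. Of the 131571 B2 copies 76.9% had 0 counts in all 4 libraries, and of the 241352 B3 and B3A copies 80.9%. This share was 70.5% in B2_Mm1a, 74.9% in B2_Mm1t, 78.7% in B2_Mm2, 79.7% in B3 and 82.9% in B3A. Thus the younger names had the larger shares of copies with counts. By the study's methods, single TE copies were analysed with reads of unique position, which leaves out reads that fit several near-identical copies. Values of young copies are the most uncertain in this respect. The minimum of 5 counts was met exactly by 3437 B2 and B3 copies, and 4842 copies lay just below it with 4. The 25329 copies tested were 6.79% of all members and held 88.6% of their counts. Only 27 copies reached 1000 counts over the 4 libraries, and 2439 copies were needed to reach 50% of the counts, so that the signal was spread over many sites.

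After thinning each library to 1805047 TE counts, B2 copies with at least 1 count numbered 15083 and 14648 in WT ESCs and 14037 and 14858 in G3 ESCs. One G3 library was below both WT libraries and the other lay between them. For B3 and B3A the numbers were 24020 and 23538 in WT ESCs and 23412 and 23388 in G3 ESCs, with means that differed by less than the WT libraries did. Without thinning, B2 and B3 copies with a count numbered 41469 and 40705 in WT ESCs and 39825 and 38246 in G3 ESCs.

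B3 held the most counts of the 5 names. Its share of all TE counts was 4.73% and 4.70% in WT ESCs and 4.52% and 4.61% in G3 ESCs. B3A, a variant of B3, had 2.13% and 2.15% in WT ESCs and 2.08% and 2.11% in G3 ESCs. In both names the 2 G3 libraries lay below the 2 WT libraries without overlap. B3 and B3A together came to 6.85% ± 0.0117 (SD, n = 2) for WT and 6.66% ± 0.0782 (SD, n = 2) in G3 ESCs (two-sided exact permutation p = 0.333, the smallest p that 2 libraries against 2 can give).

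The B2 names did not separate the genotypes in this way. B2_Mm2 had 2.36% and 2.32% of the TE counts for WT and 2.19% and 2.34% in G3 ESCs. The shares of B2_Mm1t were 0.546% and 0.541% in WT ESCs and 0.504% and 0.557% in G3 ESCs. For B2_Mm1a they were 0.568% and 0.543% in WT ESCs and 0.549% and 0.605% in G3 ESCs. In each B2 name G3 replicate 1 was the lower and G3 replicate 2 the higher of its genotype, and the WT values fell between them or overlapped them. The 3 names together held 3.43% ± 0.0502 (SD, n = 2) for WT and 3.38% ± 0.183 (SD, n = 2) in G3 ESCs, a difference smaller than the spread of the G3 libraries (two-sided exact permutation p = 1).

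**Figure D1:**
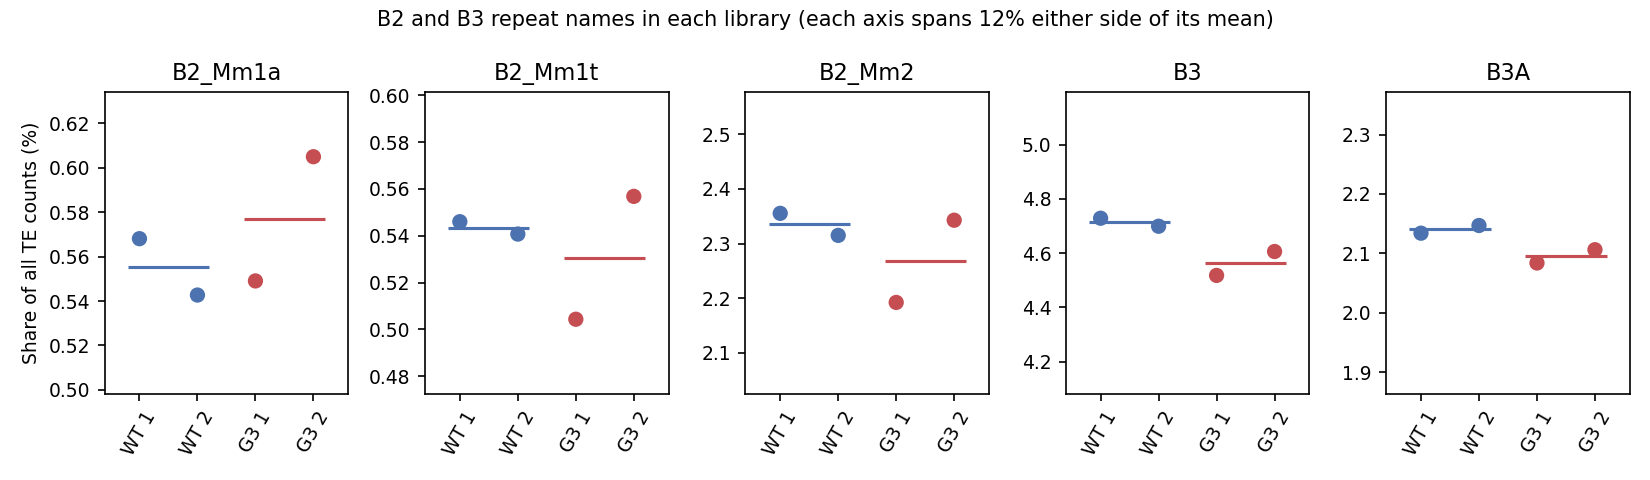
Share of all TE counts (%) of each of the 5 repeat names in the 2 WT (blue) and 2 G3 Terc-/- (red) libraries, with the mean of each genotype as a line. B3 and B3A lie lower in both G3 libraries, whereas in the B2 names the G3 libraries lie on either side of, or overlap, the WT libraries.

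With a cutoff of 1.5-fold and an unadjusted p-value of 0.05 none of the 5 names was called, whereas 5.13% of the 917 repeat names tested were called higher and 2.94% lower. On the log2 scale B3 was lower in G3 ESCs by 0.10 (log2 fold change -0.10, SE 0.02, edgeR adjusted p = 0.00484). B3A had a log2 fold change of -0.08 (SE 0.02, edgeR adjusted p = 0.0154). By adjusted p-value at any fold change, 11.6% of all repeat names were lower and 13.2% were higher, so that B3 and B3A were 2 of 106 lower names. These calls ended without either WT library and stayed without either G3 library, in fits that leave 1 library in a genotype. Without WT replicate 1 or 2 the log2 fold change was -0.09 or -0.10 for B3 and -0.08 or -0.08 for B3A. Without G3 replicate 1 or 2 it was -0.08 or -0.12 for B3 and -0.07 or -0.09 for B3A. With DESeq2 the adjusted p was 0.0134 for B3 and 0.0598 for B3A. The log2 fold change of B2_Mm2 was -0.09 (SE 0.03, edgeR adjusted p = 0.0553) and that of B2_Mm1t was -0.09 (SE 0.04, edgeR adjusted p = 0.183). The values of both rested on the G3 libraries: without G3 replicate 2, B2_Mm2 stood at -0.14 and B2_Mm1t at -0.16. Without G3 replicate 1 they stood at -0.04 and -0.0078. Without WT replicate 1 or 2, B2_Mm2 stood at -0.08 or -0.11 and B2_Mm1t at -0.08 or -0.09. B2_Mm1a stood at 0.0038 (SE 0.05, edgeR adjusted p = 0.971). These values are relative to the other repeat names, because TMM factors, which set the typical repeat name to no change, were 0.982 and 0.983 in WT ESCs and 1.02 and 1.01 in G3 ESCs. With total TE counts alone, B3 stood at -0.05 (edgeR adjusted p = 0.0696), and with scaling by the gene counts at -0.03 (edgeR adjusted p = 0.814). Over the 8 alternatives that kept all libraries, the adjusted p of B3 ranged from 0.000396 to 0.814 (edgeR and DESeq2). For B3A the values under these scalings were -0.03 and -0.0093, and its adjusted p ranged from 0.000647 to 0.939 (edgeR and DESeq2). As a percent of the gene counts, B2 and B3 together came to 0.964% and 0.957% in WT ESCs and to 0.929% and 1.02% in G3 ESCs, which overlap.

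The value of B2_Mm1a rested on 1 copy. Copy 6454 of B2_Mm1a held 11.9% of the counts of its name, with 1005 and 964 counts in WT ESCs and 1698 and 1722 in G3 ESCs. It was higher in both G3 libraries than in either WT library, by 0.91 on the log2 scale (SE 0.09, edgeR adjusted p = 4.99e-12), just under the fold change of 2 required of single copies. Without G3 replicate 1 or 2 the value was 1.00 or 0.81. Once the best counted copy of each name was left out, B2_Mm1a had a log2 fold change of -0.12 (edgeR adjusted p = 0.0701), close to -0.11 for B2_Mm1t and B2_Mm2, -0.10 for B3 and -0.09 for B3A.

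The changes were also summed separately over copies with few and with many counts, and the difference between these classes was not tested. Summed over copies with under 100 counts, the log2 fold changes were -0.14 for B2_Mm1a, -0.13 for B2_Mm1t and B2_Mm2, -0.14 for B3 and -0.13 for B3A. These fits used TMM scaling only, and scaling by total TE counts or by the gene counts was not fitted for these copies. Under TMM all 5 names, young and old, thus lay between -0.14 and -0.13 there. Of these names, B2_Mm1a (adjusted p = 0.0294), B2_Mm2 (adjusted p = 0.00837), B3 (adjusted p = 0.000396) and B3A (adjusted p = 0.000647) were lower by edgeR's adjusted p-value. B2_Mm1t (edgeR adjusted p = 0.0977) was not. The share of all repeat names that were lower in this fit was not counted, so that these calls have no background beside them. B2 copies of this kind held 2.33% and 2.27% of the TE counts for WT and 2.09% and 2.29% in G3 ESCs, which overlap. For B3 and B3A the same share was 4.11% and 4.05% in WT ESCs and 3.85% and 3.93% in G3 ESCs, without overlap. The 356 B2 copies with 100 or more counts held 1.14% and 1.13% in WT ESCs and 1.15% and 1.21% in G3 ESCs. In the 762 B3 and B3A copies with 100 or more counts the shares were 2.75% and 2.79% in WT ESCs and 2.75% and 2.78% in G3 ESCs, a difference within the spread of the WT libraries.

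**Figure D2:**
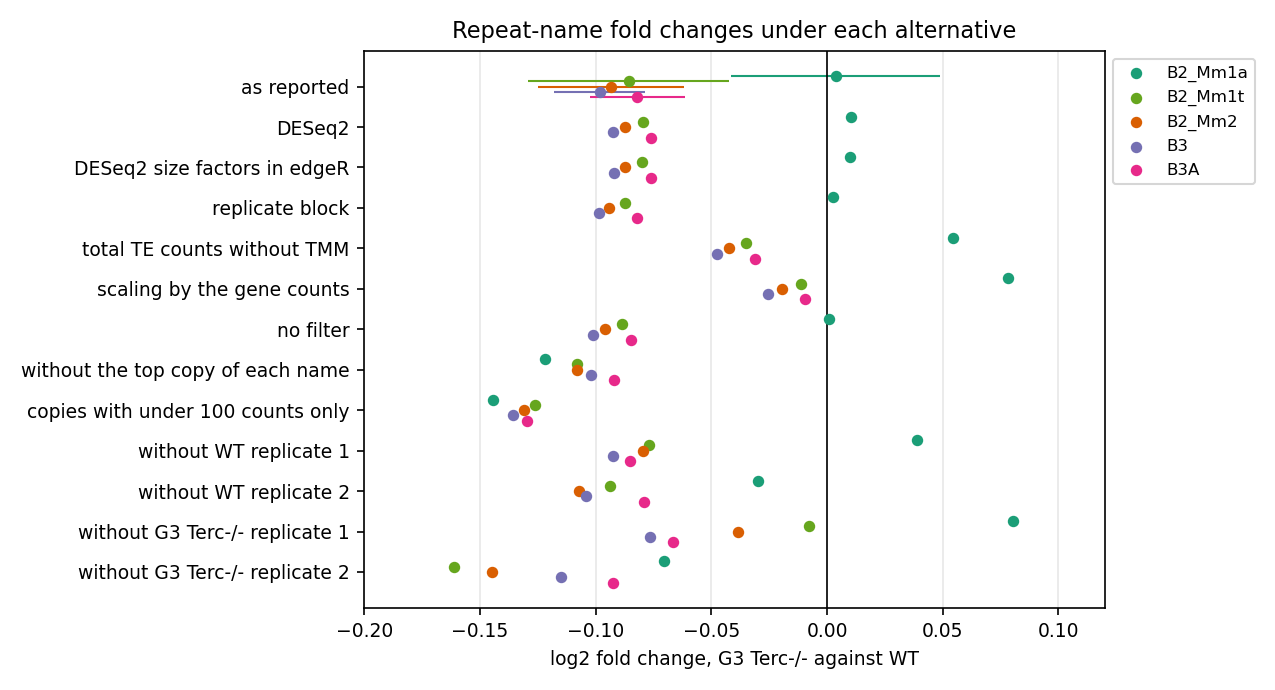
Log2 fold change (G3 Terc-/- against WT) of the 5 repeat names, with its standard error as reported and as points under each alternative. B3 and B3A stay below 0 throughout but move from -0.10 and -0.08 to -0.03 and -0.0093 with scaling by the gene counts, and B2_Mm1a changes sign without its copy with the most counts.

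Ratios between SINE kinds do not depend on library scaling. B1, the other abundant SINE of the mouse, descends from 7SL RNA (the RNA of the signal recognition particle) instead of a tRNA. The log2 ratio of B3 and B3A to B1 counts was -1.46 in both WT libraries and -1.49 in both G3 libraries. This difference of -0.0359 was larger than the spread within each genotype (SD 0.00183 in WT ESCs and 0.00186 in G3 ESCs, n = 2), with the smallest p that the design allows (two-sided exact permutation p = 0.333). The log2 ratio of B2 to B1 was -2.44 and -2.47 in WT ESCs and -2.52 and -2.43 in G3 ESCs. The genotypes overlapped here, as they did for the ratio of all B2 to B3 and B3A, which was -0.98 and -1.01 in WT ESCs and -1.02 and -0.94 in G3 ESCs (two-sided exact permutation p = 1 for both). Against the kinds B4 and ID, B3 with B3A had log2 ratios of -0.68 and -0.68 in WT ESCs and -0.74 and -0.70 in G3 ESCs (exact permutation p = 0.333), and B2 had overlapping ones (exact permutation p = 1). Each B2 name was also set against the name B3 alone. The log2 ratio of B2_Mm1a, with copy 6454 included, was -3.06 and -3.11 in WT ESCs and -3.04 and -2.93 in G3 ESCs, which do not overlap (exact permutation p = 0.333). The ratios of B2_Mm1t and B2_Mm2 to B3 overlapped between the genotypes (exact permutation p = 1 for both). Of these 8 ratios tested, the 3 without overlap had a Benjamini-Hochberg adjusted p of 0.889 (exact permutation test).

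Single copies were then called at 2-fold and an unadjusted p of 0.05. B2 had 254 higher (2.76%) and 348 lower (3.79%) copies in G3 ESCs out of 9191. Among the 16138 B3 and B3A copies, 412 (2.55%) were higher and 647 (4.01%) were lower. Over all 176114 TE copies tested, 4.7% were higher and 3.87% were lower, so that the lower calls of B2 and B3 were near the background and the shares of higher calls were below it. Without G3 replicate 1 the higher calls came to 122 B2 (1.33%) and 188 B3 and B3A copies (1.16%), beside 1.65% of all TE copies. Without G3 replicate 2 they came to 99 (1.08%) and 189 (1.17%), beside 1.93%. The lower calls were then 254 and 243 B2 copies (2.76% and 2.64%) and 498 and 451 B3 and B3A copies (3.09% and 2.79%), beside 2.94% and 2.6% of all TE copies. By name, the share of higher copies ran from 2.51% in B3A to 3.33% in B2_Mm1t, and the share of lower copies from 3.57% in B2_Mm2 to 4.26% in B2_Mm1a. B1 copies, with 3.11% higher and 3.83% lower, and copies of B4 and ID, with 3.12% higher and 3.92% lower, lay near these values. The median log2 fold change was -0.12 in B2 and -0.12 in B3 and B3A copies, beside -0.08 in B1, -0.08 in B4 and ID and 0.02 over all TE copies. The median varied with the counts. In copies with 5 to 19 counts it was -0.18 for B2 and -0.19 for B3 and B3A, from 100 to below 500 counts -0.04 and -0.02, and with 500 or more counts 0.07 and 0.04. The medians of all TE copies in these ranges were 0.07, 0.02 and -0.01. For B1 copies they were -0.13, -0.03 and -0.04, and for B4 and ID copies -0.11, -0.0053 and -0.0045.

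Fewer copies passed with an adjusted p-value under 0.05 in place of the unadjusted one. Then 18 B2 copies were higher and 15 lower, or 0.196% and 0.163%, and 30 B3 and B3A copies were higher and 35 lower, or 0.186% and 0.217%. The background over all TE copies was 0.634% higher and 0.366% lower. With 1 G3 library left out, edgeR gave 0 of all 176114 TE copies an adjusted p-value under 0.05 (8084 and 7969 passed the unadjusted cutoffs), so that these fits say nothing on single adjusted calls. B2_Mm1t had 4 higher and 0 lower copies by adjusted p-value (edgeR), against 54 and 68 by the unadjusted one. DESeq2 called 61 B2 copies higher and 70 lower, and 102 B3 and B3A copies higher and 147 lower, at the unadjusted cutoffs. As shares these were 0.664% and 0.762% of B2 and 0.632% and 0.911% of B3 and B3A copies, beside 1.6% and 1.01% of all TE copies by DESeq2.

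**Figure D3:**
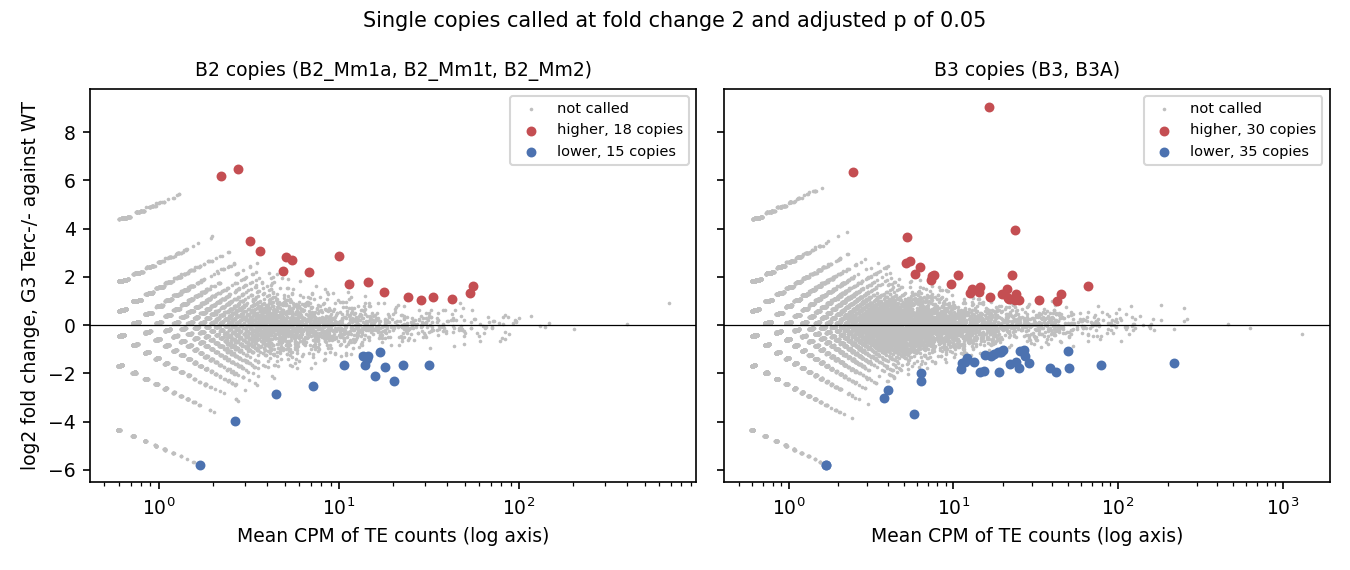
Log2 fold change (G3 Terc-/- against WT) of each tested B2 (left) and B3 (right) copy against its mean CPM of the TE counts on a log axis. Copies called at 2-fold and an adjusted p of 0.05 are coloured, 18 higher and 15 lower for B2 and 30 higher and 35 lower for B3, and low copies fall on lines because counts are whole numbers.

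The shares called varied with the counts of a copy. In copies with 5 to 19 counts, 2.27% of B2 and 2.13% of B3 and B3A copies were higher, beside 3.89% of all TE copies. With 20 to 99 counts, 4.37% of B2 and 3.61% of B3 and B3A copies were higher, beside 7.12% of all TE copies, and 5.54% and 5.42% were lower, beside 5.51%. From 100 to below 500 counts, 2.78% of B2 and 3.41% of B3 and B3A copies were higher, beside 4.57% of all TE copies. In each of these count ranges the share of higher B2 and B3 copies lay below that of all TE copies, and this difference was not tested. Higher B1 copies, at 2.63%, 4.49% and 3.3%, and B4 and ID copies, at 2.6%, 4.63% and 2.93%, also lay below it. None of the 32 B2 copies with 500 or more counts was called (edgeR). Of the 88 B3 and B3A copies, 1 was higher (1.14%) and 2 were lower (2.27%), beside 2.04% higher and 3.5% lower of all TE copies.

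**Figure D4:**
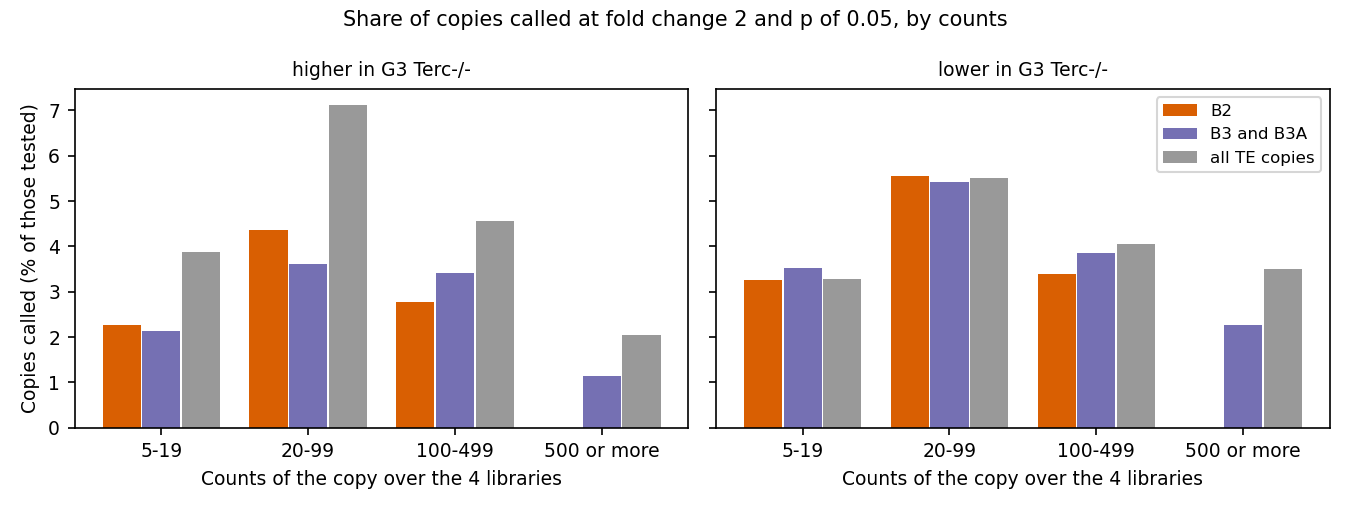
Percent of tested copies called higher (left) or lower (right) in G3 ESCs (2-fold, unadjusted p of 0.05), by the counts of the copy over the 4 libraries, for B2, B3 with B3A, and all TE copies. In the class of 20 to 99 counts, 4.37% of B2 and 3.61% of B3 and B3A copies are higher beside 7.12% of all TE copies, whereas the lower shares lie between 5.42% and 5.54%.

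Of the copies with at least 50 counts, 33 of 813 B2 copies and 72 of 1741 B3 and B3A copies had an adjusted p-value under 0.05 and no overlap between genotypes. Of these, 14 B2 copies were higher and 19 lower, and 34 B3 and B3A copies were higher and 38 lower. Among all TE copies with at least 50 counts, 4.33% were higher and 3.3% were lower by the same rule. The 8 copies with the largest changes in each direction are described next. Their adjusted p-values were part of this choice and describe the copies without being further support. Several met the minimum of 50 counts only through the genotype where they were high. All 16 kept their direction when any 1 library was left out, which their choice for no overlap between genotypes all but fixed in advance. With DESeq2, 11 of the 16 had an adjusted p-value under 0.05, and B2_Mm2 copy 21495 and B3 copies 42046, 59887, 58602 and 5316 did not. By edgeR, 12 of the 16 passed without WT replicate 1 and 12 without WT replicate 2. Without G3 replicate 1 or 2, where no TE copy passed, 15 and 13 of the 16 stayed under 0.05 before adjustment (edgeR). Their positions are not given by the running numbers that tell the copies of a name apart.

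The largest rise was that of B3 copy 127750. It had 0 counts in both WT libraries and 70 and 57 counts in the G3 libraries. Measured against a floor of 3 counts over the WT group, it was at least 45.5-fold higher (edgeR adjusted p = 6.84e-15). B2_Mm1t copy 5686 had 0 counts in both WT libraries and 9 and 12 in the G3 libraries, at least 7.53-fold above the same floor. It was named because it was the only other B2 or B3 copy of at least 20 counts without a WT count. It reached 20 counts through the G3 libraries alone, so that no p-value is given for it. No B2 or B3 copy of at least 20 counts was without a count in both G3 libraries. Over all TE copies of that depth, 0.102% had no count in WT ESCs and 0.024% had none in G3 ESCs, and among the 7345 B2 and B3 copies these shares were 0.0272% and 0%.

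B3A copy 61191 rose from 3 and 9 counts in WT ESCs to 104 and 71 in G3 ESCs, a log2 fold change of 3.94 (SE 0.34, edgeR adjusted p = 6.22e-14), which was 3.37 without WT replicate 1 and 4.89 without WT replicate 2. B2_Mm2 copy 89818 had 5 and 5 counts in WT ESCs and 30 and 38 in G3 ESCs (log2 fold change 2.84, SE 0.46, edgeR adjusted p = 1.74e-05). Both were low in each WT library and high in each G3 library. The other 5 rose by 2.02 to 2.19 on the log2 scale, and the best counted of them was B3 copy 41690, with 20 and 16 counts in WT ESCs and 73 and 70 in G3 ESCs (edgeR adjusted p = 1.59e-07). B2_Mm2 copy 21495 had 3 and 7 counts in WT ESCs and 19 and 24 in G3 ESCs. B3 copy 42046 was the least even of the group, with 10 and 2 counts in WT ESCs and 26 and 22 in G3 ESCs. Its log2 fold change was 3.61 without WT replicate 1 and 1.34 without WT replicate 2, and that of B2_Mm2 copy 21495 was 1.72 and 2.89. B2_Mm2 copy 21495 had an unadjusted p of 0.0655 without G3 replicate 2 (edgeR, a fit across all copies), and B3 copy 42046 had unadjusted p-values of 0.168 and 0.126 without G3 replicate 1 and 2 (edgeR). B3 copies 36030 and 59887 went from 8 and 9 to 36 and 31 counts and from 5 and 7 to 25 and 21 counts.

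Among the copies that fell, B2_Mm2 copy 14101 had the largest change, from 27 and 24 counts in WT ESCs to 4 and 4 in G3 ESCs (log2 fold change -2.53, SE 0.53, edgeR adjusted p = 0.00178). B2_Mm1a copies 6967 and 6968 carry consecutive numbers and fell together. Copy 6967 had 78 and 63 counts in WT ESCs and 14 and 12 in G3 ESCs (edgeR adjusted p = 9.46e-08), and copy 6968 had 58 and 49 in WT ESCs and 13 and 10 in G3 ESCs (edgeR adjusted p = 1.47e-05). B3 copy 48731, the best counted of the 8, fell by 1.96 on the log2 scale, with 148 and 132 counts in WT ESCs and 38 and 29 in G3 ESCs (edgeR adjusted p = 9.99e-11), and stood at -2.08 and -1.86 without G3 replicate 1 and 2. The G3 libraries were even for these copies. B3 copy 5316, with 22 and 21 counts in WT ESCs and 9 and 1 in G3 ESCs, and B3 copy 70781, with 40 and 57 in WT ESCs and 17 and 6 in G3 ESCs, were less even, and copy 70781 had an unadjusted p of 0.0508 without G3 replicate 2 (edgeR). Without G3 replicate 1 and without G3 replicate 2, the log2 fold change of copy 5316 was -4.09 and -1.22 and that of copy 70781 was -2.80 and -1.48. B3 copy 58602 went from 22 and 22 to 4 and 4 counts and B3A copy 31223 from 56 and 69 to 14 and 16.

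The 3 copies of 500 or more counts that were called are named here after their values were seen. B3 copy 118396 had 648 and 723 counts in WT ESCs and 235 and 194 in G3 ESCs, the best counted of the 3 (log2 fold change -1.57, edgeR adjusted p = 1.24e-17). B3 copy 50334 fell from 228 and 272 to 74 and 74 counts (log2 fold change -1.65, edgeR adjusted p = 2.34e-12). B3A copy 65401 rose from 54 and 79 to 212 and 174 counts (log2 fold change 1.64, edgeR adjusted p = 6.13e-11).

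The copies with the most counts had smaller fold changes. B3 copy 75599 held 2.86% of the counts of B3, with 2871 and 3319 counts in WT ESCs and 2636 and 1832 in G3 ESCs (log2 fold change -0.38, SE 0.09, edgeR adjusted p = 0.00620, under the required fold change). With DESeq2 its adjusted p was 0.404, and with 1 library left out its log2 fold change lay between -0.56 and -0.21. Its edgeR adjusted p was 0.0685 without WT replicate 1 and 0.608 without WT replicate 2. B2_Mm2 copy 82160 had 831 and 802 counts in WT ESCs and 833 and 742 in G3 ESCs (log2 fold change 0.05, edgeR adjusted p = 0.935). B3A copy 25530, with 1396 and 1348 counts in WT ESCs and 1262 and 1080 in G3 ESCs, stood at -0.13 (edgeR adjusted p = 0.695). B2_Mm1t copy 5725 had 215 and 210 counts in WT ESCs and 296 and 221 in G3 ESCs (log2 fold change 0.38, edgeR adjusted p = 0.174).

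**Figure D5:**
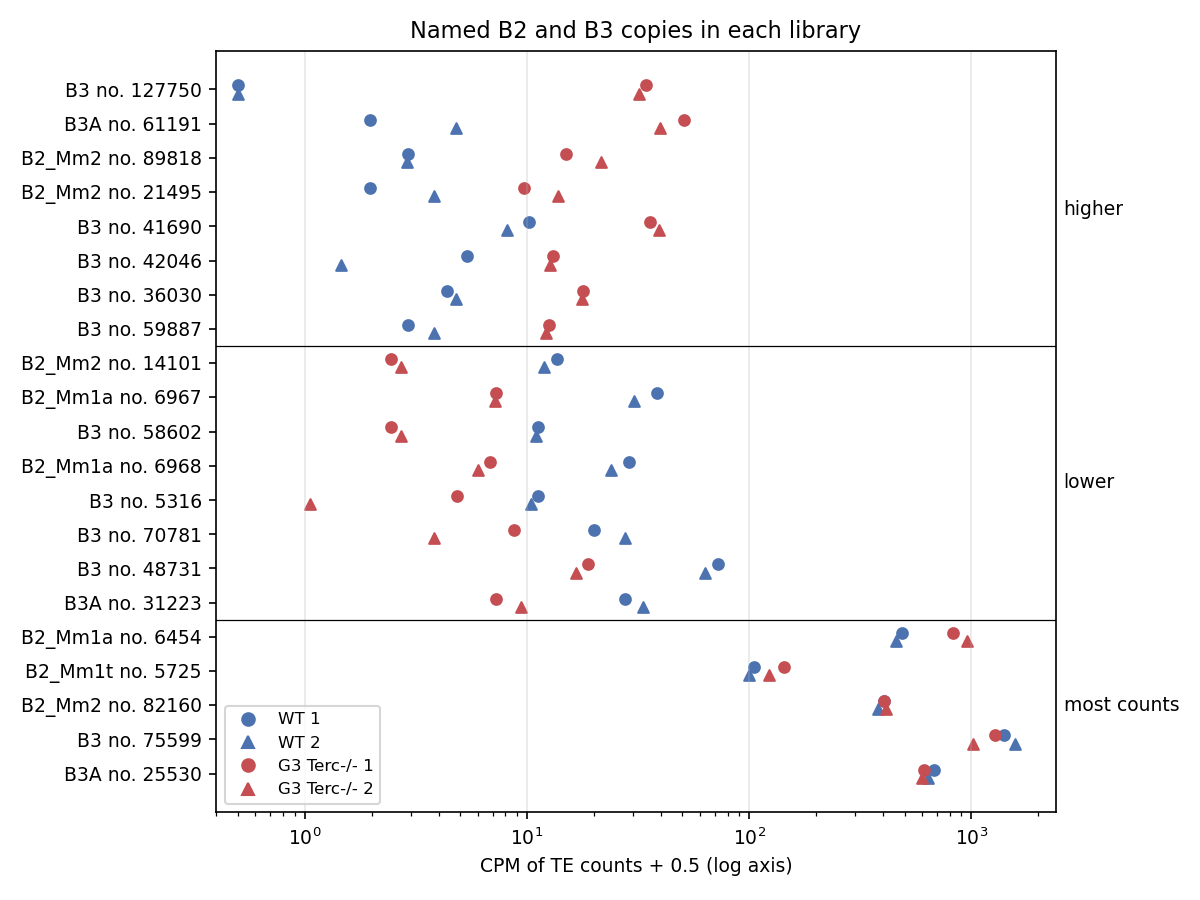
CPM of the TE counts (plus 0.5, log axis) in each WT (blue) and G3 Terc-/- (red) library for the 8 B2 and B3 copies with the largest rise, the 8 with the largest fall and the best counted copy of each name. The first 16 were chosen for no overlap between genotypes, and B3 copy 127750 sits at 0 counts in both WT libraries.

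Among well counted copies, those with consecutive running numbers tended to have like fold changes, and the correlation was lower in copies with few counts. Among 139 pairs of consecutively numbered B2 or B3 copies of the same name with at least 100 counts each, the log2 fold changes had a Pearson correlation of 0.75 across pairs, beside 0.86 for 1124 such pairs over all TE copies. With at least 20 counts, the correlation was 0.36 over 1808 B2 and B3 pairs, beside 0.52 over 9973 pairs of all TE copies. In all 43 of these B2 and B3 pairs with both copies called at the unadjusted cutoffs the direction was shared, beside 414 of 418 for all TE copies. Over every pair of tested copies, from 5 counts on, the correlation was 0.16 (9466 B2 and B3 pairs), beside 0.25 for all TE copies, and 78 of 84 called pairs shared the direction. Pairs share libraries and may share a transcript, so that copies are not independent. What the numbers order is not given in the sources used here.

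Changes were also gathered in some stretches when the numbers of each name were divided into 50 equal stretches, a division looked at after the values were known. Of the 38 B3 copies with at least 20 counts between the numbers 47498 and 50466, 28 had a negative log2 fold change, 11 were lower and 2 higher at the unadjusted cutoffs and the median was -0.77, against -0.06 for all such B3 copies, of which 5.19% were lower and 3.64% higher. In the next stretch of B3, from 50467 to 53434, 11 of 78 copies were higher and 0 lower (edgeR), with a median of 0.37. B3A showed 5 lower and 1 higher of 17 copies and a median of -0.49 from 29737 to 31595, and of all such B3A copies 5.04% were lower and 3.32% higher. In B2_Mm1t the numbers 5574 to 6037 held 7 of the 22 higher copies of this name, with a median of 0.48 over 22 copies, and 5.54% of all 397 such copies of the name were higher. These stretches were chosen for their values and received no test.

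Libraries of 1 genotype were not copies of each other, as the chi-square per copy was 1.51 for the WT pair and 1.5 for the G3 pair over B2 and B3 copies with at least 20 counts in the pair. In copies with at least 100 counts over all libraries, the SD over 1118 copies of the log2 ratio (pseudocount 0.5) was 0.37 for the WT pair and 0.38 for the G3 pair. Between a WT and a G3 library it was 0.62 and 0.63, larger than within a genotype. Over all TE copies of this depth the spread between genotypes was 0.74 and 0.74.

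Genes whose products transcribe, silence or bind SINEs were read from 3 lists. At an adjusted p-value under 0.05 at any fold change, 21.7% of the 14896 genes tested passed as higher and 21.8% as lower. Of 21 genes of RNA polymerase III and its factors, 4 were higher, 4 were lower and 13 did not pass (edgeR), near this background, and the median log2 fold change was -0.03 beside 0.0062 over all genes. *Gtf3c6* and *Gtf3c1*, subunits of TFIIIC, which binds the internal promoter of SINEs, were higher by 0.33 and 0.18 on the log2 scale, and the polymerase subunit gene *Polr3f* by 0.35 (adjusted p = 0.000199, 0.00356 and 0.000219, edgeR). Fewer genes of the list passed without WT replicate 1 or without WT replicate 2. The share of all genes that passed in those fits was not counted. *Gtf3c1* then had adjusted p-values of 0.0617 and 0.0665 and *Polr3g*, without WT replicate 2, of 0.0731 (edgeR). *Polr3gl* and *Polr3g* encode alternative forms of 1 subunit, and both were lower. On the log2 scale *Polr3gl* fell by 0.75 (470 and 511 counts in WT ESCs, 304 and 233 in G3 ESCs), and *Polr3g*, the form favoured in stem cells, by 0.25, as did the subunit gene *Polr3c* by 0.27. *Brf1*, a subunit of the initiation factor TFIIIB, had a log2 fold change of 0.15 (edgeR adjusted p = 0.147). *Maf1*, the repressor of RNA polymerase III, stood at -0.02 (edgeR adjusted p = 0.849), and without WT replicate 2 or without G3 replicate 1 at 0.02 or 0.0078.

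Of 20 chromatin genes, 3 were higher, 7 were lower and 10 did not pass by adjusted p-value (edgeR), with a median log2 fold change of -0.07. *Dnmt3b*, a de novo DNA methyltransferase, had 11230 and 11596 counts in WT ESCs and 5129 and 4405 in G3 ESCs (log2 fold change -1.13, edgeR adjusted p = 1.59e-22). *Cbx3*, which encodes the heterochromatin protein HP1 gamma, had 3400 and 3708 counts in WT ESCs and 1427 and 1318 in G3 ESCs (log2 fold change -1.24, edgeR adjusted p = 9.09e-21). *Cbx1*, which encodes HP1 beta, fell by 0.59, and *Adnp* fell by 0.25. ADNP, CHD4 and HP1 proteins form the ChAHP complex, which is known to limit CTCF binding at SINE B2 copies. *Chd4*, named for this complex after its value was seen, stood at -0.02 (edgeR adjusted p = 0.741). It lies on chromosome 6 of GRCm38, from 125095980 to 125130591. Between 120 and 130 Mb of that chromosome 10 of 101 genes had a negative log2 fold change, with a median of 0.54. *Ctcf* itself stood at 0.04 (edgeR adjusted p = 0.586), with 4355 and 4688 counts in WT ESCs and 4519 and 3984 in G3 ESCs, and at -0.0031 and -0.0082 without WT replicate 1 and without G3 replicate 2. *Trim28*, a corepressor of retrotransposons, *Dnmt3l* and the remodeller gene *Smarca5* were higher by 0.41, 0.31 and 0.21, and without WT replicate 1 *Smarca5* had an adjusted p of 0.109 (edgeR).

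Among 17 genes of proteins that bind, edit or cut SINE RNA, 0 were higher, 6 were lower and 11 did not pass by adjusted p-value (edgeR). At an unadjusted p-value under 0.05 there were 2 higher genes, and DESeq2 gave 0 higher and 6 lower by adjusted p-value. Of all genes tested, 21.7% were higher and 21.8% lower by the adjusted p-value of edgeR. These shares were not counted for the unadjusted rule or for DESeq2. *Ezh2*, whose product binds B2 RNA and speeds its self-cleavage as well as being the methyltransferase of Polycomb, had 4820 and 5122 counts in WT ESCs and 2527 and 2168 in G3 ESCs (log2 fold change -0.96, edgeR adjusted p = 7.95e-19). *Ssb*, which encodes the La protein that binds new RNA polymerase III transcripts, fell by 0.29, and *Upf1*, the helicase of nonsense-mediated decay, fell by 0.45. *Ezh2* and *Cbx3* lie on chromosome 6 of GRCm38, from 47530274 to 47595270 and from 51470154 to 51483704. Between 45 and 80 Mb of that chromosome 122 of 129 genes had a negative log2 fold change, with a median of -0.90, and *Ezh2* and *Cbx3* were lower together with these neighbours.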

How the data were processed

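Poly(A) RNA of 2 WT and 2 G3 Terc-/- libraries was sequenced as paired reads of 150 bp. The authors deposited whole-number counts per gene and per TE copy, not normalized. Per the labels, the submitters' processing notes name Trim Galore, STAR, featureCounts and the build mm10. By the study's methods, the authors analysed single TE copies with reads of unique position. The strand setting is not given in the sources used here. Here, TE counts were summed by repeat name (counts of copies with under 5 counts included), and the quasi-likelihood test of edgeR 4.0.16 (R 4.3.3) with TMM scaling was fitted across all repeat names, all copies with at least 5 counts and all expressed genes. Cutoffs were 1.5-fold for names and 2-fold for copies at an unadjusted p-value of 0.05, and an adjusted p of 0.05 for genes. The named copies had at least 50 counts, an adjusted p under 0.05 and no overlap between genotypes, and the 8 with the largest change in each direction were taken, beside the best counted copy of each name. The members and gene lists were chosen with earlier results of these data known. Of 24116 gene identifiers, 24061 matched a symbol. The lowest library held 1805047 TE counts, where a count of 0 allows up to 3. The fits were tested on simulated data. There, 96% of single copies with a 4-fold change and at least 50 counts passed the unadjusted cutoffs, and 40.5% passed by adjusted p-value. Of unchanged copies, 2.65% passed the unadjusted cutoffs in either direction. Alternatives were DESeq2 1.42.0, other scalings and filters, a replicate block and leaving out each library, and the scaling by total TE counts alone was added after seeing the data. Replicate numbers were not taken to pair the libraries, because same-numbered libraries did not deviate together over all genes tested (correlation 0.0617). The feeder sum was larger in replicate 1 of each genotype, and a shared deviation in a subset of genes was not tested. B2 and B3 sequences and copy positions were not used here.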

Additional observations from a re-analysis of the deposited data

How the results depend on the processing

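The 5 repeat names had no call under any of 12 alternatives at 1.5-fold. B2_Mm1a changed sign, to -0.12 without the best counted copy of each name and -0.14 in copies with under 100 counts, and ranged from -0.0703 to 0.0804 when 1 library was left out (-0.03 without WT replicate 2). As a percent of the gene counts, the difference in share (G3 minus WT) was 0.00679 for B3 with B3A and 0.0144 for B2 and B3 together. These are opposite in sign to the differences in share of the TE counts, -0.198 and -0.256. B3 with B3A came to 0.641% and 0.640% of the gene counts in WT ESCs and to 0.623% and 0.671% in G3 ESCs, which overlap. Scaling by the gene counts moved the median repeat name by 0.0686 on the log2 scale. Higher and lower copies numbered 61 and 70 for B2 and 102 and 147 for B3 with DESeq2, 57 and 63 and 107 and 159 with the filter of edgeR, 106 and 139 and 179 and 262 with at least 20 counts, and 18 and 15 and 30 and 35 by adjusted p-value. With the filter of edgeR 4.49% of 1269 B2 copies were higher and 4.96% lower, and 4.1% and 6.09% of 2609 B3 and B3A copies. With at least 20 counts these shares were 4.27% and 5.59% of 2485 B2 and 3.68% and 5.39% of 4860 B3 and B3A copies. All TE copies had 7.27% higher and 5.97% lower calls with that filter and 6.65% and 5.44% with at least 20 counts. Without WT replicate 1 or 2, 2.44% or 1.9% of B2 and 2.33% or 2.0% of B3 and B3A copies were higher. Of all TE copies, 3.55% or 3.6% were higher in these fits. The lower shares there were 2.73% or 3.23% for B2 and 3.15% or 2.96% for B3 and B3A, beside 3.15% or 3.01%. With 1 library left out, B2_Mm1t ranged from -0.161 to -0.0078 and B2_Mm2 from -0.145 to -0.0384, and the higher copies ranged from 99 to 224 for B2 and from 188 to 376 for B3. The RNA polymerase III list then had 4 to 9 changed genes, *Ctcf* -0.00821 to 0.0895 (-0.0031 without WT replicate 1) and *Maf1* -0.0582 to 0.0231 (0.0078 without G3 replicate 1). With 1 G3 library left out no TE copy of any name was called by adjusted p-value. The filters test fewer copies by construction, and for the other changes the cause was not tested. Leaving out a library leaves 1 sample in a genotype, which is assumed to vary like the other genotype. Most copies held few counts, which limits what could be called.

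With the replicate number as a block (replicate block), 146 B2 copies were higher and 208 lower, and 245 B3 and B3A copies were higher and 365 lower, beside 3.08% higher and 2.28% lower of all TE copies (B2 1.59% and 2.26%, B3 and B3A 1.52% and 2.26%). With it the adjusted p of edgeR was 0.0558 for B3 and 0.0854 for B3A, at log2 fold changes of -0.10 and -0.08. The numbers do not pair the libraries by the labels, and same-numbered libraries had correlations of -0.0470 over repeat names and -0.00315 over copies.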
